A study of Mus musculus with 4 samples.

Results

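The Peg10 and Tfpi2 domain of mouse chromosome 6 is a stretch that holds imprinted genes, that is, genes whose RNA comes mainly from the copy inherited from a given parent. Its members here, chosen by gene name with the authors' mean FPKM of WT and MD1 already known, were the rows of the expression table named Calcr, Tfpi2, Sgce, Peg10, Ppp1r9a, Pon1, Pon2, Pon3 and Asb4, and all 9 were present among 22691 genes. RNA-seq had been made from fibroblasts of female fetuses at stage E13.5, in 4 libraries, to ask what the loss of SmcHD1 does to silent chromatin. SmcHD1 binds chromatin and shares a hinge domain with the SMC proteins, which hold or fold DNA. In 2 libraries both Smchd1 copies were wild type (Smchd1 +/+, here WT), and in 2 both carried the MD1 allele (Smchd1 MD1/MD1, here MD1), a mutation that ends the protein early. Fibroblasts of both groups were Xist deltaA/+, carrying on the maternal X an Xist gene that cannot silence its chromosome, and came from a C57BL6/J mother and a father that was an F1 of JF1 and C57BL6/J. The paternal copy of chromosome 6 could therefore be of JF1 or of C57BL6/J origin, or a mix, and the effect of such a difference and that of the MD1 genotype cannot be told apart. Whether the libraries of a group came from separate fetuses is not stated in the sources used here.

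Expression was given as FPKM, that is, sequenced fragments scaled to transcript length and library size, and the authors gave only the mean of each group. No member had a value per library, so the values below carry no spread, no difference was tested, and 1 library could set a difference. Allele-specific reads, which numbered 521768 to 806626 per library, covered genes of the X and 0 of the 9 members, so the parental copy that made their RNA was not analysed here. Smchd1 itself had 14.7 FPKM in WT and 1.94 in MD1, and Xist 22.04 and 26.9. All 14 fibroblast markers on the list used averaged at least 1 FPKM, and their summed FPKM, to which Vim gave 2790 and 2802, was 6741 in WT and 6299 in MD1. Single markers went both ways, 7 higher and 7 lower, with Fn1 (log2 ratio of MD1 over WT, 1 FPKM added, of 1.34), Col3a1 (-1.25) and Fap (-1.08) past 2-fold.

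In imprinted domains, DNA methylation laid down in the egg or the sperm marks the parental copies, and the mark decides which copy is read. In this domain the mark lies at the shared start of Sgce and Peg10, is laid down in the egg, and leaves these genes expressed from the paternal copy. Tfpi2, Ppp1r9a, Pon2, Pon3, Asb4 and Calcr are known to favour the maternal copy, each in some tissues only, among them the placenta and extraembryonic membranes for Tfpi2 and the paraoxonases, and the brain for Calcr. The members lie within 1747 kb between 3635720 and 5383021 on chromosome 6 (mm9, as are all positions of genes below). In map order they are Calcr, Tfpi2, Sgce, Peg10, Ppp1r9a, Pon1, Pon3, Pon2 and Asb4.

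Start regions of 4 members are printed first, because they belong to the members with the largest ratios between the groups (Tfpi2 and Pon3) and to the paralogues of Pon3, which lie beside it and differ from it in level (Pon1 and Pon2). Each is the 250 bases before an annotated start, 5′ to 3′ in the direction of the gene, from RefSeq on build GRCm38.p6, with each CG dinucleotide, the site of DNA methylation, in capitals.
Tfpi2, chr6:3968376-3968625, minus strand: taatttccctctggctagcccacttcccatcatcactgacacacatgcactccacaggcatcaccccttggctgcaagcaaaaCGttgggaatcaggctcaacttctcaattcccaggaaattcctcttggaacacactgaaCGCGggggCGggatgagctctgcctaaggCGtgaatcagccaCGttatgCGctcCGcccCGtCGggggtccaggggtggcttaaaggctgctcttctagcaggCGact
Pon1, chr6:5193947-5194196, minus strand: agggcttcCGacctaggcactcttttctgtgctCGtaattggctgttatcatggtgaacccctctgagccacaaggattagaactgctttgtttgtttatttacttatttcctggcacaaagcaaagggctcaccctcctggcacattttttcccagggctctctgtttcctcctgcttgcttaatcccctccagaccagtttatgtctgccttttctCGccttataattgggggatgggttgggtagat
Pon3, chr6:5256234-5256483, minus strand: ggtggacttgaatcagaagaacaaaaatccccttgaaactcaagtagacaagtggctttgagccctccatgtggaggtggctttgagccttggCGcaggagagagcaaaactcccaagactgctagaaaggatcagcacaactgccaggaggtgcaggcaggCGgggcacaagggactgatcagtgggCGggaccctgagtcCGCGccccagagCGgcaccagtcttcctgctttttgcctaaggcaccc
Pon2, chr6:5298341-5298590, minus strand: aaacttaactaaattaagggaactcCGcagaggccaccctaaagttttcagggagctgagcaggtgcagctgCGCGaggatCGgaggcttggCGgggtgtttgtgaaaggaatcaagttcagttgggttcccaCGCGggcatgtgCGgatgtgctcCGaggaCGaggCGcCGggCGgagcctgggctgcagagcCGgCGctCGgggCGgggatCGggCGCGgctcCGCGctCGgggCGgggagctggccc
A window was listed for 7 of the 9 members, Sgce and Peg10 being those without one. Where a gene had several, the start that best matched the length of the gene in the expression table was taken, out of 3 for Tfpi2. The listed Pon3 start lies 39978 bases from the RefSeq end of the gene, against a span of 35382 bases in the expression table.

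These start regions differed in CG content. Tfpi2 had 11 CG dinucleotides in its 250 bases, and 35.6% of 32851 such windows of RefSeq genes had as many or more. Pon2 had 24, a number reached by 12.0% of windows. Pon3 had 6, equal to the median window, and Pon1 had 3. Of the windows not printed, Ppp1r9a had 35 (reached by 2.97% of windows), Asb4 had 4 and Calcr 2. The GC box GGGCGG, searched on both strands, was found 2 times in the Tfpi2 window, 3 times in that of Pon2 and 1 time each in those of Pon3 and Ppp1r9a, and 32.7% of all windows held it. CCAAT, on either strand, was found 2 times in the Pon1 window and 1 time in that of Asb4, against 33.8% of windows with a match. TATAAA was in 0 of the 7 windows and in 12.4% of all. No window of the 7 held matches to both GGGCGG and CCAAT, so matches did not overlap, and a match is a run of letters, not a shown binding site.

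Of the 7 members above 0 in both groups, Tfpi2 was the one with more RNA in MD1. Sgce, Peg10, Ppp1r9a, Pon3, Pon2 and Asb4 were all lower by various amounts, while Calcr and Pon1 were close to 0 in both groups. For the 7 members above 0 in both groups the log2 ratio was formed, MD1 over WT, of FPKM with 1 added. Of these, 6 averaged at least 1 FPKM over the groups, here called measured. The 7 had a median log2 ratio of -0.28, beside -0.0067 for 16212 autosomal genes above 0 in both groups, and with 0.01 added in place of 1 FPKM it was -0.43. Of the 7 genes 6 were lower in MD1, as were 52.9% of those autosomal genes. Past a 2-fold difference on this scale there was 1 member on the higher side, Tfpi2, and 1 on the lower, Pon3. The shares of autosomal genes that far apart were 0.894% on the higher side and 1.97% on the lower. Since the members were chosen with these values known, the counts describe them and support nothing further. In bulk RNA, fewer cells of a type and less RNA per cell cannot be told apart.

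**Figure D1:**
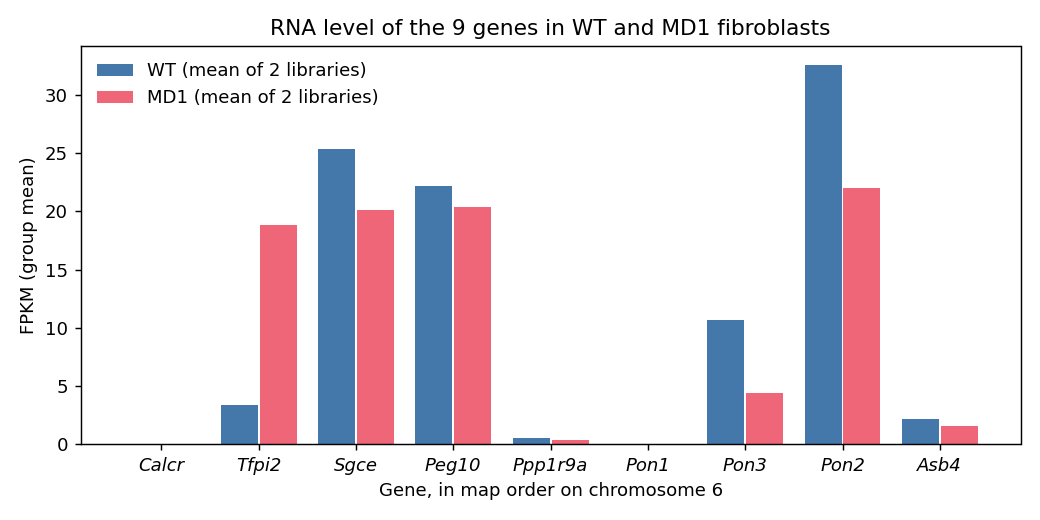
Group mean FPKM (vertical axis, from 0) of the 9 genes in map order, with blue bars for WT and red bars for MD1, each a mean of 2 libraries without a spread. Tfpi2 stands at 3.39 in WT and 18.8 in MD1, while Pon2, Sgce, Peg10 and Pon3 have the higher bar in WT.

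Tfpi2 (6, 3912595 to 3918354, minus strand) encodes tissue factor pathway inhibitor 2, a secreted protein with Kunitz domains that binds the extracellular matrix and blocks plasmin and other serine proteases. Its FPKM was 3.39 in WT and 18.8 in MD1, 5.55 times the WT level, a log2 ratio of 2.17. That ratio was reached or passed by 21 of 11001 measured autosomal genes, Tfpi2 included. By FPKM, Tfpi2 in WT stood below Pon3 and above Asb4 among the members. In MD1 it stood above Pon3, close to Sgce at 20.1 and Peg10 at 20.3 FPKM. Peg10 had 6.53 times the FPKM of Tfpi2 in WT and 1.08 times in MD1. The autosomal genes nearest to Tfpi2 over both group means, by distance on the log2(FPKM + 1) scale, were Cbr3 (3.93 and 17.2 FPKM in WT and MD1, distance 0.21), Ifi27 (4.05 and 14.4, distance 0.41) and Col5a3 (3.66 and 13.52, distance 0.46). With only 2 group means behind it, such likeness says only that level and ratio are alike.

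Because Tfpi2 is abundant in trophoblast, the invasive cell lineage of the placenta, the trophoblast markers were read beside it. Of 22 such genes, 5 were measured, and 3 of these are keratins. Tpbpa, Ctsq, Psg18 and Psg23 were listed at 0 in both groups. Gcm1, Syna, Synb, Cdx2, Elf5 and Prl3b1 were at no more than 0.0309 FPKM in either group. Hand1 had 1.23 FPKM in WT and 0.244 in MD1, Eomes 0.782 and 0.406, and Prl3d1 0.0368 and 0.160. The summed FPKM of the list was 42.02 in WT and 66.3 in MD1. Of the 5 measured genes, 3 were higher and 2 lower in MD1. The proliferin gene Prl2c2 alone went from 0.768 to 33.9 FPKM, a larger rise than that of the sum. Krt7 had 18.6 FPKM in WT and 5.53 in MD1, Krt18 17.1 and 22.1, Krt8 2.57 and 2.41, and Prl8a9 0.642 and 1.36. The part of these genes' cells in the Tfpi2 result was not tested.

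Sgce (6, 4624350 to 4697204, minus strand) encodes epsilon-sarcoglycan, a membrane protein of the dystrophin-linked complex that ties the cell skeleton to the matrix. Its FPKM was 25.3 in WT and 20.1 in MD1, so MD1 had 79.6% of the WT level, a log2 ratio of -0.32. Peg10 (6, 4697306 to 4710516, plus strand), derived from the gag and pol genes of a Ty3/gypsy retrotransposon and needed for a working placenta, lies head to head with Sgce, with 101 bases between their spans. Its FPKM was 22.1 in WT and 20.3 in MD1 (91.9% of WT), a log2 ratio of -0.12. The paternally expressed pair was thus at like levels in each group. Sgce had 1.14 times the FPKM of Peg10 in WT and 0.991 times in MD1. Of the 11001 measured autosomal genes, 17.6% had a ratio as low as that of Sgce or lower, and 34.5% a ratio as low as that of Peg10 or lower. Skeletal muscle markers were lower too: of 9 measured, 8 were at least 2-fold lower in MD1, with a summed FPKM over 13 listed genes of 188 in WT and 55.0 in MD1. Their part in the Sgce difference was not tested.

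Ppp1r9a (6, 4853320 to 5115661, plus strand) encodes neurabin, which brings protein phosphatase 1 to actin and is best known from neurons. It was at 0.548 FPKM in WT and 0.350 in MD1, under 1 in both groups, with a log2 ratio of -0.20. At so low a level the pseudocount holds the ratio near 0, and as plain FPKM the MD1 level was 63.8% of WT. The neural markers showed no common direction, with 3 of 5 measured genes higher and 2 lower in MD1.

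The 3 paraoxonase genes lie side by side and encode related enzymes that open lactone rings and are known for protection against lipid oxidation. They differed widely in level. Pon1 (6, 5118090 to 5143946, minus strand), whose protein is made in the liver and carried on high-density lipoprotein, was at 0.00914 FPKM in WT and listed at 0 in MD1, so no ratio was formed. Pon3 (6, 5170852 to 5206233, minus strand) was at 10.7 FPKM in WT and 4.36 in MD1, 40.7% of the WT level. Its log2 ratio was -1.13, and 2.29% of the 11001 autosomal genes were as low or lower. Pon2 (6, 5214624 to 5248373, minus strand), the widely expressed paraoxonase that stays inside the cell, was at 32.6 FPKM in WT and 22.0 in MD1, 67.5% of the WT level, a log2 ratio of -0.55. Pon2 had the highest FPKM of the 9 members in both groups. Both expressed paraoxonases were lower in MD1, but not in proportion: Pon2 had 3.04 times the FPKM of Pon3 in WT and 5.04 times in MD1. The 3 genes together had 43.3 FPKM in WT and 26.3 in MD1. How reads that match more than 1 paraoxonase gene were assigned is not given in the sources used here.

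In the start regions printed above, the CG counts of the paraoxonases ran in the same order as their FPKM, with Pon2 highest and Pon1 lowest. Ppp1r9a did not follow that order, having the most CG dinucleotides of the 7 windows and under 1 FPKM. Nor did Tfpi2 in WT, with 11 CG dinucleotides and 3.39 FPKM, against 6 and 10.7 FPKM for Pon3. The order of 3 genes was noticed in these data and is given as a description. The Pon3 count belongs to a listed start that did not match the span of the gene behind its FPKM.

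Asb4 (6, 5333386 to 5383021, plus strand) encodes an ankyrin-repeat and SOCS-box protein that directs other proteins to ubiquitin ligation. It was at 2.13 FPKM in WT and 1.58 in MD1, 74.0% of the WT level, with a log2 ratio of -0.28. Calcr (6, 3635720 to 3714713, minus strand), the calcitonin receptor gene, known from bone-resorbing osteoclasts and brain, was listed at 0 in WT and had 0.0109 FPKM in MD1. No ratio was formed for it. Next to Calcr, the blood and osteoclast markers had 4 of 9 measured genes higher and 5 lower in MD1. C1qb was lowest in log2 ratio (7.20 and 3.59 FPKM, -0.84). Acp5 (1.41 and 2.30 FPKM, 0.46) and Ctsk (14.8 and 20.1 FPKM, 0.41) were highest. A listed 0 in FPKM can also be a failed estimate, so the values of Calcr and Pon1 say only that both were at or near 0 in these tables.

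The summed FPKM of the members was similar in the groups, and its make-up was not. It was 96.8 in WT and 87.6 in MD1, so MD1 had 90.5% of the WT sum. Without Tfpi2 the sums were 93.4 and 68.8, so MD1 had 73.6%. Tfpi2 made up 3.50% of the sum in WT and 21.5% in MD1. Pon2 went from 33.6% to 25.1% and Pon3 from 11.1% to 4.98%. Sgce had 26.2% and 23.01%, and Peg10 22.9% and 23.2%, so Peg10 held nearly the same share in both groups and Sgce a smaller one in MD1.

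**Figure D2:**
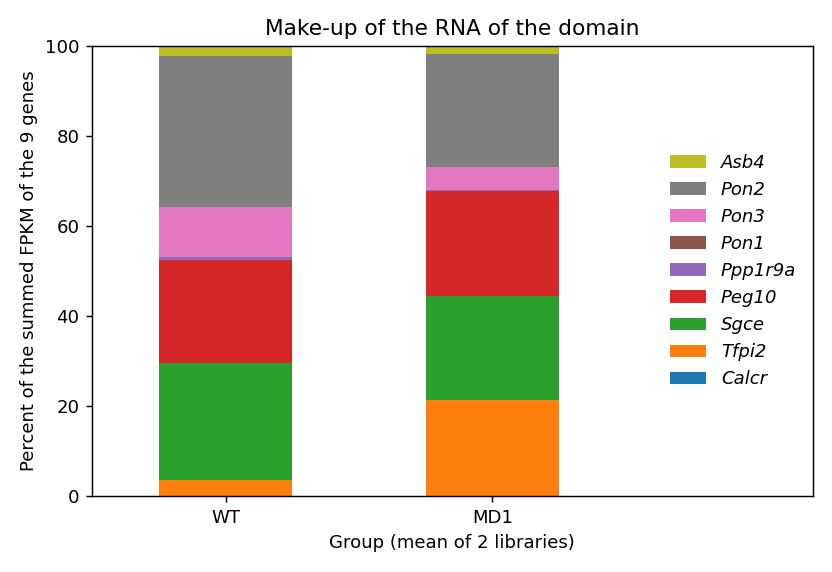
Share of the summed FPKM of the 9 genes (vertical axis, percent) in WT and MD1, stacked in map order from Calcr at the bottom to Asb4 at the top. The Tfpi2 band widens from 3.50% to 21.5%, the Pon3 and Pon2 bands narrow, and the Peg10 band stays near 23%.

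Along the chromosome the members were not all on the same side of 0. The table listed 13 other genes in the domain or within 1 Mb of its ends, of which 9 were measured and 0 were 2-fold apart with 1 FPKM added. The count rests on that addition: Dync1i1, at 38.5% of its WT level in plain FPKM, had a log2 ratio of -0.66, and of -1.24 with 0.1 added. Above 0 in log2 ratio were Tfpi2 and the measured genes around it, Samd9l (0.27) and Ccdc132 (0.14) before it, and Gng11 (0.83) and Bet1 (0.085) after it. Of the measured autosomal genes 49.9% were lower in MD1, so a ratio above 0 is common. The length of this stretch was not set beside others. Gng11, a G protein gamma subunit gene and the nearest measured gene to Tfpi2, had 27.3 FPKM in WT and 49.3 in MD1. Calcr and Gngt1, on either side of Tfpi2, were both listed at 0 in WT and had 0.0109 and 0.0235 FPKM in MD1, while Hepacam2, before Calcr, had 0.0118 and 0.0105, all near 0. Sgce, the next member, lies 706 kb from Tfpi2, and the first lower gene between them was Col1a2, a fibrillar collagen gene with 849 FPKM in WT and 477 in MD1 (log2 ratio -0.83).

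From Col1a2 to Dync1i1, 9 measured genes in a row were lower in MD1, 5 of them members. Casd1 (-0.11) precedes Sgce and Peg10, followed by Pon3, Pon2 and Asb4, then Pdk4 (6.67 and 3.79 FPKM, -0.68) and Dync1i1 (1.48 and 0.568 FPKM, -0.66). Slc25a13 beyond them had a log2 ratio of 0.11. Among measured autosomal genes there were 18 such runs of 9 or more lower genes and 12 of 9 or more higher genes, and the 18 runs held 3.39% of the lower genes. The run was noticed in these data and is given as a description.

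**Figure D3:**
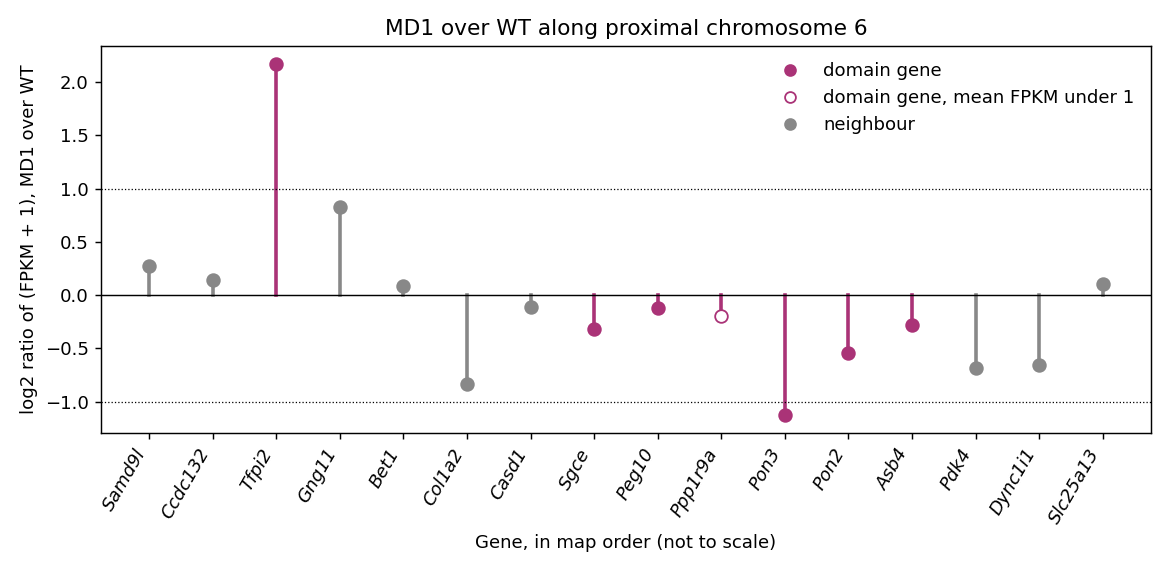
Log2 ratio of FPKM with 1 added, MD1 over WT (vertical axis), of domain genes (purple) and neighbours (grey) in map order, not to scale, with dotted lines at a 2-fold difference and an open point for Ppp1r9a, whose mean FPKM is under 1. Tfpi2 at 2.17 and Gng11 at 0.83 stand highest, and the genes from Col1a2 to Dync1i1 lie below 0.

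Against all autosomal genes the members fell on both sides of the centre. The median log2 ratio of the 11001 measured autosomal genes was 0.0012, and 49.9% of them were lower in MD1. The 6 members measured by the same rule had a median of -0.30, with 5 lower and Tfpi2 higher. Imprinted genes outside proximal chromosome 6 were read in the same way. Of 61 listed, 58 had FPKM values and 41 were measured. Of the 41, 12 were higher and 29 lower in MD1, with a median log2 ratio of -0.31. In that list 1 gene was at least 2-fold higher, Peg12 (5.05 and 16.4 FPKM), and 6 were at least 2-fold lower, among them Mest (65.4 and 5.78 FPKM, -3.29) and H19 (992 and 133 FPKM, -2.89), beside 1.26% and 2.83% of the autosomal genes. These counts rest on the added 1 FPKM. In plain FPKM, Ndn (63.9 in WT and 128 in MD1) and Airn (1.32 and 3.08) were also past 2-fold higher. Nnat (27.0 and 13.3) and Ddc (3.32 and 1.27) were also past 2-fold lower. Whether the domain differs from the imprinted genes of that list was not tested.

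**Figure D4:**
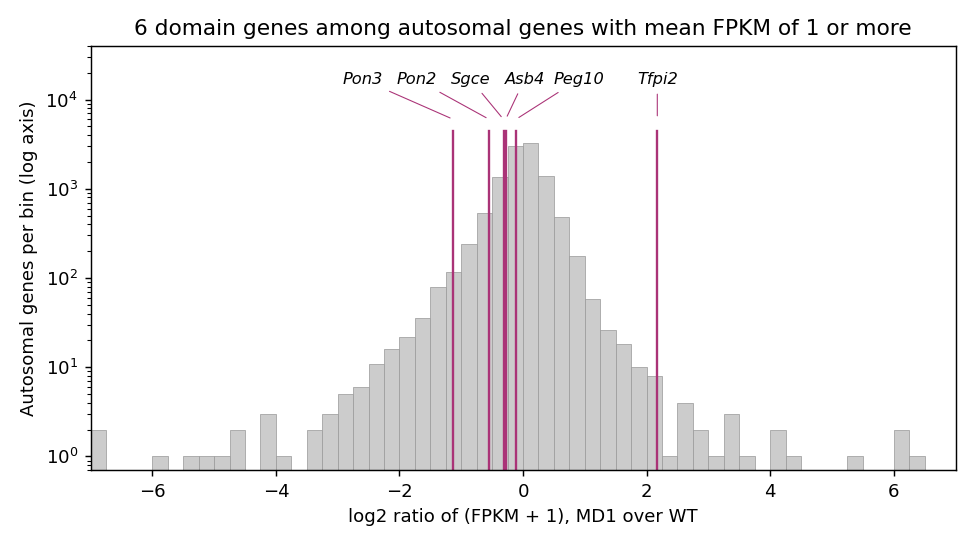
Number of autosomal genes per bin (vertical axis, log scale) by log2 ratio of FPKM with 1 added, MD1 over WT, for the 11001 measured genes, with purple lines for the 6 domain genes that pass the same filter. Pon3 at -1.13 and Tfpi2 at 2.17 lie toward the tails, and Pon2, Sgce, Asb4 and Peg10 lie between -0.55 and -0.12.

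Genes related to each member by family, complex or function were read from lists set beside it. For Tfpi2, 14 of 20 coagulation and Kunitz inhibitor genes were measured, of which 7 were higher and 7 lower, with a median log2 ratio of -0.15. Its relative Tfpi had 27.2 FPKM in WT and 36.4 in MD1 (0.41), and the plasminogen activator gene Plat 30.4 and 12.2 (-1.24). The tissue factor gene F3 had a log2 ratio of 0.63, and Plat and App (-1.20) were the 2 genes past 2-fold. For Sgce, 14 of 18 genes of the sarcoglycan and dystrophin complex were measured, 5 higher and 9 lower, with a median of -0.11, ranging from Sspn (-0.59) and Dag1 (-0.47) to Dtnb (0.39) and Lama2 (0.50). Around Peg10, 18 retroelement-derived gag genes were listed, 17 had FPKM values and 7 were measured. Of the 7, 6 were lower (median -0.091), among them Zcchc5 (-1.44) and Cxx1c (-0.17), while Arc (0.40) was higher. Of the measured genes of that list, Zcchc5, Cxx1a, Cxx1b, Cxx1c and Rgag4 lie on the X, unlike Peg10. The list for Ppp1r9a, of protein phosphatase 1 and its targeting subunits, had 19 measured genes, 9 higher and 10 lower (median -0.0082). They ranged from Ppp1r12b (-0.77) and Ppp1r13l (-0.29) to Ppp1ca (0.20) and Ppp1r8 (0.26).

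The remaining members were set beside their lists in the same way. Of 20 measured lactone and oxidative defence genes, read beside the paraoxonases, 13 were higher and 7 lower in MD1 (median 0.17), with Gpx3 (-0.96) and Gpx4 (-0.21) lowest and Nqo1 (0.55) and Gclm (0.43) highest. The ankyrin and SOCS box list of Asb4 had 4 higher and 7 lower of 11 measured (median -0.073), with Asb5 (-1.47) and Rnf7 (-0.43) lowest and Asb6 (0.26) and Tceb1 (0.18) highest. For Calcr, 3 of 9 calcitonin peptide, receptor and RAMP genes were measured, Calcrl (-0.08), Adm (0.11) and Ramp3 (0.85), with a median of 0.11. Endothelial markers, where Asb4 is known to be expressed in the embryo, had 2 of 4 measured genes higher and 2 lower in MD1. Of these, Flt1 had 4.32 and 9.59 FPKM in WT and MD1, and Emcn 4.12 and 1.58.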

How the data were processed

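Polyadenylated RNA of fibroblasts was sequenced in 4 stranded libraries (2 WT, 2 MD1), per the labels' protocols. The submitters' processing notes name mm9, Cuffdiff and Cufflinks 2.2.1 without saying what each was used for. An aligner or annotation is not given in the sources used here. The authors deposited FPKM as 1 mean per group, so the depth behind each value is unknown and neither limma nor a permutation test could be fitted. Allele-specific reads of X-linked genes were deposited as counts per library and used for their totals only. A further 8 columns, of allele fractions and summed reads, were not used here.

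Log2 ratios of (FPKM + 1) in MD1 over WT were computed for genes above 0 in both groups with pandas 2.3.3 (Python 3.11.15). The added 1 understates changes at low levels. A gene was counted as 2-fold apart at a log2 ratio of at least 1 in size. Measured means a mean FPKM of 1 or more. Starts, counted from 0 in the table, are printed 1-based: 9511 gene spans then equalled RefSeq lengths, against 620 otherwise. Alternatives were pseudocounts of 0.1 and 0.01, the filter, median-centring and quantile normalization. The text names each member, each measured neighbour, up to the 2 highest and 2 lowest genes of each list, and the 3 genes nearest to Tfpi2. The value of a gene in the coagulation list is left out of the text. Further genes were named after their values were seen: Tfpi, Airn, Nnat, Ddc, Vim, Fn1, Col3a1, Fap, C1qb, Acp5, Ctsk, Flt1, Emcn, the trophoblast markers, further gag genes on the X and, among neighbours, Gngt1 and Hepacam2. Members and lists were chosen with earlier results of these data known.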

Additional observations from a re-analysis of the deposited data

How the results depend on the processing

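Tfpi2 stayed the 1 member at least 2-fold higher and Pon3 the 1 at least 2-fold lower under pseudocounts of 0.1 and 0.01, the FPKM filter, median-centring and quantile normalization, and 0 members changed direction. The log2 ratio ranged from 2.17 to 2.47 for Tfpi2, -1.29 to -1.10 for Pon3, -0.57 to -0.55 for Pon2, -0.33 to -0.32 for Sgce, and was -0.12 for Peg10 in each setting. At the low genes Asb4 (-0.43 to -0.20) and Ppp1r9a (-0.63 to -0.13) it depended on the setting. The median over the members was -0.41 and -0.43 with pseudocounts of 0.1 and 0.01, -0.30 over the 6 measured members, and -0.20 with quantile normalization. It was also -0.20 with the pseudocounted values of Calcr and Pon1 included, a choice made after seeing the data. No paired analysis was possible because the members have 1 mean per group and no value per library, and no library could be left out for the same reason.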
